A study of Mus musculus with 12 samples.

Results

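The genes described here carry sodium and water absorption in the distal gut and its control by aldosterone. The 10 members were taken by name from the table of 27785 genes: Nr3c2, Hsd11b2, Sgk1, Scnn1a, Scnn1b, Scnn1g, Slc9a2, Slc9a3, Atp1b1 and Aqp8. All 10 passed the filter on low values that left 17360 genes for testing. RNA was sequenced from 12 mouse rectum samples in 4 groups, of mice with a floxed allele of Apc, a tumour suppressor gene and brake on Wnt signals, and a Cre recombinase that tamoxifen switches on. In the Lgr5-Apc group (genotype Lgr5creER;APC flox, n = 4) Cre was driven by Lgr5, a gene of intestinal stem cells. In the Cdx2-Apc group (CDX2creER;APC flox, n = 3) it was driven by Cdx2, a transcription factor gene of hindgut epithelium. The Lgr5-Cdx2-Apc group (Lgr5creER;CDX2creER;APC flox, n = 2) carried both drivers. The control samples (n = 3) were titled WT, while their genotype field reads CDX2creER;APC flox (WT), so whether they carried either allele is not settled by the labels. Tamoxifen was injected intraperitoneally at 25 mg/kg on 5 days. This protocol accompanies all 12 samples, whereas the separate treatment field is filled only for the Apc groups, so genotype and injection cannot be told apart in a comparison with control. Strain, sex, age and the time from injection to sampling are not given in the sources used here. Nothing in the labels says whether samples came from separate animals, and p-values then reflect only how these samples vary, which may be technical.

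Aldosterone acts on surface epithelial cells of the distal colon through the mineralocorticoid receptor, which is encoded by Nr3c2. The enzyme made from Hsd11b2 inactivates glucocorticoids and so keeps the receptor free for aldosterone, and the receptor raises transcription of targets such as the kinase gene Sgk1 and the epithelial sodium channel. Sodium enters through that channel (subunits alpha, beta and gamma, from Scnn1a, Scnn1b and Scnn1g) or in exchange for protons (Slc9a2 and Slc9a3), leaves through the basolateral sodium pump (beta subunit from Atp1b1), and water follows, in part through channels such as Aqp8.

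Values are the authors' FPKM, fragments normalised for transcript length and sequencing yield, so levels of different genes are compared per length. Differences are given on the scale of log2(FPKM + 1), which understates the change of low genes. They come from one limma model over all 12 libraries, are printed with their standard error, and calls are those with a Benjamini-Hochberg adjusted p below 0.05 over all 17360 genes. Depth in reads is unknown, so no counting interval is given.

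The members lie at separate places in the genome apart from a pair (GENCODE M21 annotation of GRCm38, the build also called mm10). Scnn1g (chr7:121734479-121768475, plus strand) and Scnn1b (chr7:121865038-121918514, plus strand) are neighbours with 96563 bases between them, and Aqp8 is on the same chromosome (chr7:123462291-123468004, plus strand). Hsd11b2 (chr8:105518755-105523988) and Nr3c2 (chr8:76899442-77245012) are both on the plus strand of chromosome 8. Slc9a2 (chr1:40680574-40769273, plus strand) and Atp1b1 (chr1:164437109-164458355, minus strand) are on chromosome 1. Scnn1a (chr6:125320659-125344943), Sgk1 (chr10:21882184-21999903) and Slc9a3 (chr13:74121457-74169442) are on the plus strands of 3 other chromosomes.

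Promoter sequences from RefSeq (GRCm38.p6) matched 7 of the 10 members, in 12 start windows of which 6 belong to Sgk1. Each window of 300 bases, 250 before and 50 after the annotated start, was searched on both strands for the hormone response element, which is AGAACA followed after 3 bases by TGTTCT, for AGAACA alone, which lies within the element, and for TTTATG, letters of the Cdx2 motif. The full element was in 1 of the 12 windows, at a start of Sgk1, and in 0.00913% of all 32851 windows. AGAACA was in 3 of the 12, all at Sgk1, against 19.0% of all windows, and TTTATG in 2 of the 12, at Sgk1 and Scnn1g, against 11.9%. The 250 bases before 3 starts are shown, 5′ to 3′, with the full element and TTTATG in capitals: the Sgk1 start that holds the full element, chr10:21993640-21993889, plus strand; Scnn1g, chr7:121734229-121734478, plus strand; and Slc9a3, chr13:74121163-74121412, plus strand, whose window holds none of the 3. A match is a description of the letters and not a site of binding.
Sgk1: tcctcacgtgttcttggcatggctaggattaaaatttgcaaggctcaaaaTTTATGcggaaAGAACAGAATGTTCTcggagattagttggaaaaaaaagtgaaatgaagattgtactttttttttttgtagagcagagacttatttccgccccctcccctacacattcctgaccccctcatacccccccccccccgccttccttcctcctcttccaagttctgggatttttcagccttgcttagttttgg
Scnn1g: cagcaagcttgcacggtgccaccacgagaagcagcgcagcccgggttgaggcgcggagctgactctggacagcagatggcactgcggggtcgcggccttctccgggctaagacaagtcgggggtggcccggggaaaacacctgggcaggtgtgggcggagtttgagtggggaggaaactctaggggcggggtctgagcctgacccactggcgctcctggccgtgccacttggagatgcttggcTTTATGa
Slc9a3: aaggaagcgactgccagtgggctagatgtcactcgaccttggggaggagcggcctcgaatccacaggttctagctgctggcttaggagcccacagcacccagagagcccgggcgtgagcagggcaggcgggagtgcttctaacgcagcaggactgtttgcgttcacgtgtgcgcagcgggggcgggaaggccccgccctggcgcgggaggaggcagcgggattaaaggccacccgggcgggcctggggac

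Epithelial markers differed between libraries and are given before the results that they move with. Summed FPKM of 8 columnar epithelium markers (Krt8, Krt18, Krt19, Krt20, Epcam, Cdh17, Lgals4 and Vil1) ran from 3422 to 5429 in control, 1136 to 4812 in Lgr5-Apc, 4665 to 5669 in Cdx2-Apc and 181 to 998 in Lgr5-Cdx2-Apc. The 12 squamous markers were keratins, cornified envelope genes and desmosomal genes. Their summed FPKM ran from 65.8 to 4587, 7.09 to 32575, 18.1 to 754 and 12252 to 22937 in the same order. Not all of them moved with the sum. In Lgr5-Cdx2-Apc Krt4 was at 1.44 and 494 FPKM and Krt13 at 1.28 and 118 FPKM. In Lgr5-Apc they reached 7351 and 5071 FPKM. Summed FPKM of 6 smooth muscle markers was 48.5 to 72.1 in Lgr5-Cdx2-Apc and 614 to 3937 in the other groups. The leukocyte sum (Ptprc, Cd3e, Cd79a and Csf1r) was 37.2 to 40.8 in Lgr5-Cdx2-Apc and 2.65 to 15.0 elsewhere. Cd79a did not move with it, at 0.316 and 0.122 FPKM in Lgr5-Cdx2-Apc and 0 to 1.20 FPKM elsewhere. The sum of 4 sweat gland and hair keratins was 76.1 to 839 in Lgr5-Cdx2-Apc against 0 to 267. Summed FPKM of 7 skeletal muscle markers was 394 and 459.8 in Lgr5-Cdx2-Apc and 409 in Lgr5-Apc replicate 2, and ran from 4.87 to 47.1 in the other 9 libraries. Of the 6 skeletal muscle markers tested, limma called 5 higher in Lgr5-Cdx2-Apc than in control and 6 higher than in Cdx2-Apc. Their part in the members' differences was not tested. Of the columnar markers 7 of 8 were called lower in Lgr5-Cdx2-Apc than in control, with a median log2 difference of -3.30. Lgr5-Apc replicate 2 held the lowest columnar and the highest squamous sum outside that group. Markers of kidney tubule, 1 other tissue that uses these genes, were Aqp2, Umod, Avpr2 and Slc12a1. They summed to at most 0.422 FPKM in every library, with Aqp2 listed at 0 in 10 of 12 and Umod in 9 of 12. These values cover kidney alone. Whether the tissue behind the sweat gland and hair keratins (Krt77 at 746 and 48.6 FPKM in Lgr5-Cdx2-Apc) adds to the members was not tested. In bulk tissue, fewer cells of a type and less RNA per cell cannot be told apart. Apc itself was at 13.5 to 18.8 FPKM in all 12 libraries; a value over the whole gene does not check the deletion of a part of it.

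Per length, Atp1b1 was the most abundant member, with a median of 560.0 FPKM over the 12 libraries, followed by Aqp8 with 176 FPKM and Hsd11b2 with 126 FPKM, whose ranges overlapped. Sgk1 (median 74.1 FPKM) and Nr3c2 (70.4 FPKM) came next and their ranges over libraries overlapped. Slc9a2 (34.9 FPKM) and Scnn1a (30.3 FPKM) also overlapped. Scnn1g (5.15 FPKM), Scnn1b (5.08 FPKM) and Slc9a3 (3.41 FPKM) were the lowest, and did not differ beyond their spread. The members varied very unequally. The highest library was 2.40 times the lowest for Sgk1, 3.63 times for Scnn1a and 6.06 times for Scnn1b. It was 17.6 times for Nr3c2, 33.7 times for Atp1b1 and 56.3 times for Slc9a2. For Slc9a3, Hsd11b2, Aqp8 and Scnn1g the ratio was 136, 210.0, 253 and 414. The lowest library of 6 members (Hsd11b2, Nr3c2, Scnn1a, Slc9a2, Atp1b1 and Aqp8) was Lgr5-Cdx2-Apc replicate 2.

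**Figure D1:**
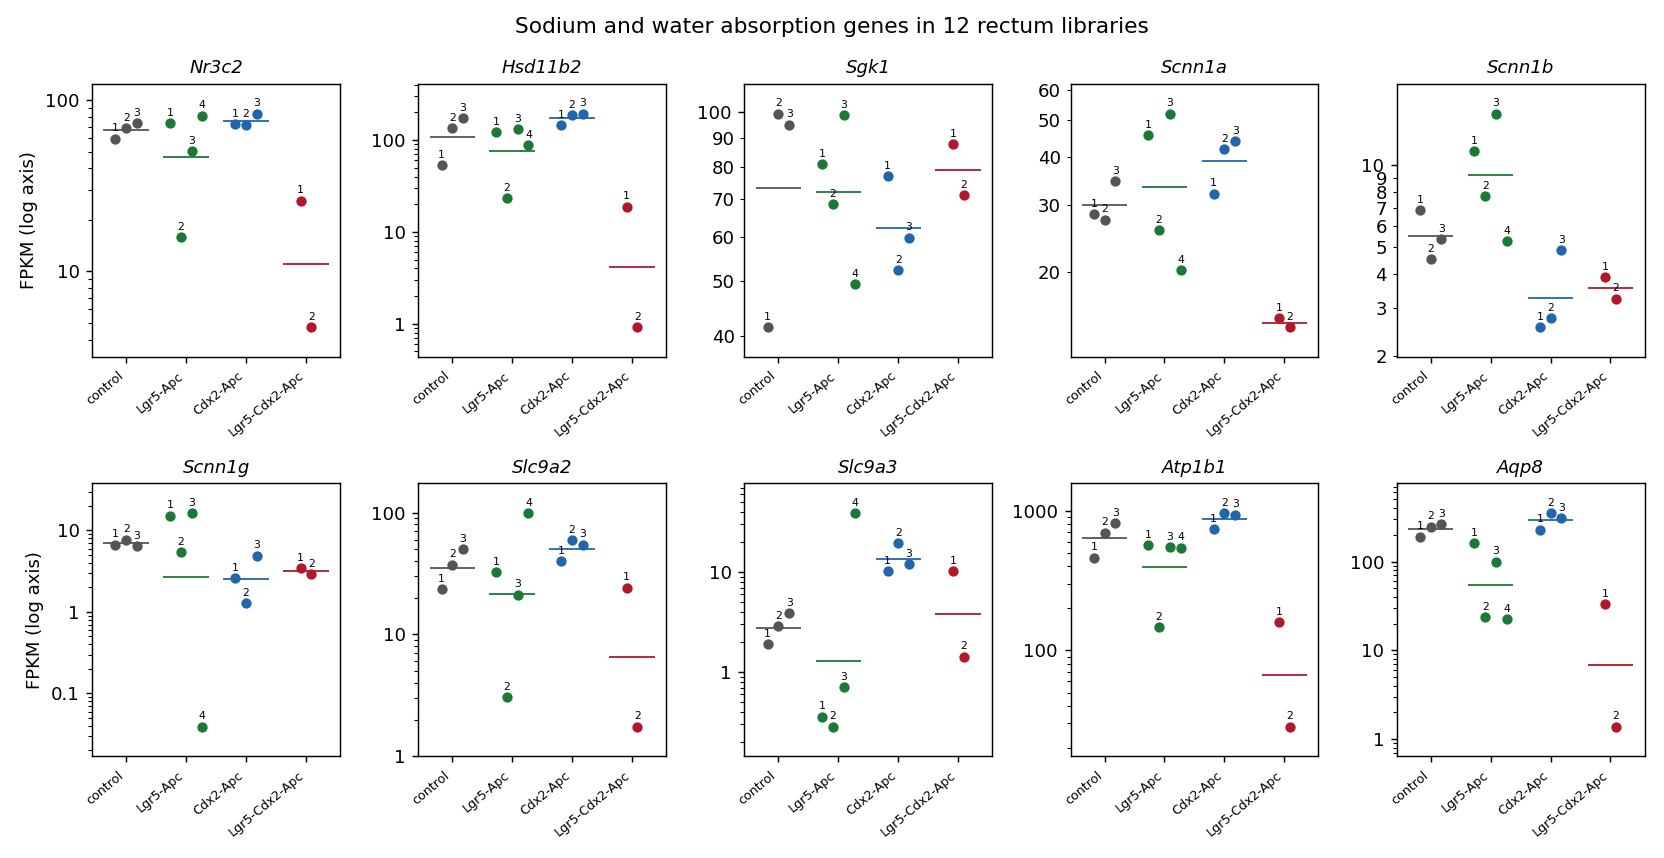
FPKM (log axis) of each of the 10 members in the 12 libraries, 1 panel per gene. Points are libraries labelled by replicate number and the horizontal line is the geometric mean of the group. The 2 Lgr5-Cdx2-Apc libraries lie below all control libraries for Nr3c2, Hsd11b2, Atp1b1, Aqp8 and the 3 sodium channel subunits, and Lgr5-Apc replicate 4 is the lowest point for Scnn1g and the highest for Slc9a3.

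Nr3c2, the aldosterone receptor gene, was even among most libraries and low in 3. It was at 59.6, 68.7 and 73.2 FPKM in control and at 72.4, 72.1 and 83.6 FPKM in Cdx2-Apc. In Lgr5-Apc it was at 73.7, 15.9, 50.3 and 81.2 FPKM, and in Lgr5-Cdx2-Apc at 25.9 and 4.75 FPKM. The low libraries were both Lgr5-Cdx2-Apc samples and Lgr5-Apc replicate 2, the same 3 in which the columnar marker sum was lowest. The Lgr5-Cdx2-Apc group did not overlap control or Cdx2-Apc, while it overlapped Lgr5-Apc through that replicate. By limma, Nr3c2 fell in Lgr5-Cdx2-Apc against control by 2.45 ± 0.69 on the log2 scale (adjusted p = 0.0362).

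Hsd11b2, which shields the receptor from glucocorticoids, was at 53.7, 134 and 171 FPKM in control and at 144, 185 and 194 FPKM in Cdx2-Apc. It was at 121, 23.2, 131 and 87.7 FPKM in Lgr5-Apc and at 18.9 and 0.925 FPKM in Lgr5-Cdx2-Apc. Both Lgr5-Cdx2-Apc libraries were below every other library, a pooled split whose share over all genes was not computed. By limma the log2 difference from control was -4.13 ± 0.95 (adjusted p = 0.0188), that from Lgr5-Apc -3.63 ± 0.91 (adjusted p = 0.0368) and that from Cdx2-Apc -4.82 ± 0.95 (adjusted p = 0.0096). Control replicate 1 was low within its own group, and it also held most of the squamous signal of the control libraries, a summed 4587 FPKM.

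Sgk1, the kinase that slows removal of the sodium channel from the membrane, did not follow the receptor or Hsd11b2. It was at 41.5, 99.5 and 95.1 FPKM in control, 80.9, 68.7, 98.9 and 49.4 FPKM in Lgr5-Apc, 77.1, 52.4 and 59.8 FPKM in Cdx2-Apc, and 87.9 and 71.1 FPKM in Lgr5-Cdx2-Apc. All 4 groups overlapped. The log2 difference of Lgr5-Cdx2-Apc from control was 0.11 ± 0.39 (limma, adjusted p = 0.863), with a 95% interval from -0.75 to 0.97, and it changed sign to -0.30 without control replicate 1.

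The alpha subunit gene Scnn1a was the most abundant of the channel genes and the least variable. It was at 28.4, 27.4 and 34.6 FPKM in control, 45.8, 25.8, 52.1 and 20.2 FPKM in Lgr5-Apc, 32.1, 42.0 and 44.2 FPKM in Cdx2-Apc, and 15.1 and 14.4 FPKM in Lgr5-Cdx2-Apc. The Lgr5-Cdx2-Apc pair was close together and below the other 10 libraries, a pooled split whose share over all genes was not computed. By limma it was lower there than in Cdx2-Apc, with a log2 difference of -1.35 ± 0.35 (adjusted p = 0.0234). Against control (-0.98 ± 0.35, adjusted p = 0.0737) and Lgr5-Apc (-1.13 ± 0.33, adjusted p = 0.0596) it did not pass.

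Scnn1b, the beta subunit gene, was at 6.84, 4.51 and 5.38 FPKM in control and at 11.3, 7.72, 15.5 and 5.28 FPKM in Lgr5-Apc. It was at 2.56, 2.75 and 4.88 FPKM in Cdx2-Apc and at 3.90 and 3.25 FPKM in Lgr5-Cdx2-Apc. Every Lgr5-Apc library was above every library of Cdx2-Apc and Lgr5-Cdx2-Apc, a pooled split whose share over all genes was not computed. The log2 difference of Lgr5-Apc from Cdx2-Apc was 1.26 ± 0.32 and did not pass (limma, adjusted p = 0.300).

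Scnn1g, the gamma subunit gene, was at 6.68, 7.72 and 6.42 FPKM in control, 2.58, 1.28 and 4.92 FPKM in Cdx2-Apc, and 3.49 and 2.90 FPKM in Lgr5-Cdx2-Apc. The 5 libraries of Cdx2-Apc and Lgr5-Cdx2-Apc were below the 3 control libraries. The share of all genes with this pooled split was not computed. In Lgr5-Apc it was at 15.2, 5.38, 16.2 and 0.0393 FPKM, which spans the highest and the lowest library of the series. None of its comparisons passed; the log2 difference of Cdx2-Apc from control was -1.12 ± 0.88 (limma, adjusted p = 1).

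The beta and gamma levels kept close to each other in most libraries. The ratio of Scnn1b to Scnn1g FPKM was between 0.585 and 1.43 in 10 libraries, 2.14 in Cdx2-Apc replicate 2 and 135 in Lgr5-Apc replicate 4. The ratio of Scnn1a to Scnn1b was 12.6, 15.3 and 9.06 in Cdx2-Apc, above all 9 other libraries, where it ran from 3.34 to 6.44. The alpha subunit therefore stood furthest above beta in the Cdx2-Apc group; this ratio was not tested.

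Slc9a2, a sodium-proton exchanger gene of the apical membrane, was at 23.5, 37.4 and 49.9 FPKM in control, 32.4, 3.05, 21.2 and 98.7 FPKM in Lgr5-Apc, 39.9, 59.5 and 54.5 FPKM in Cdx2-Apc, and 24.3 and 1.75 FPKM in Lgr5-Cdx2-Apc. Its spread within Lgr5-Apc and Lgr5-Cdx2-Apc covered most of the range of the series, and none of its comparisons passed. The largest was -2.63 ± 1.17 for Lgr5-Cdx2-Apc against Cdx2-Apc (limma, adjusted p = 0.123).

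Slc9a3, the main absorptive exchanger gene of the small intestine and proximal colon, was at 1.90, 2.90 and 3.92 FPKM in control and at 10.2, 19.6 and 12.1 FPKM in Cdx2-Apc. All 3 Cdx2-Apc libraries were above control, but the log2 difference of 1.92 ± 1.15 did not pass (limma, adjusted p = 1). In Lgr5-Apc it was at 0.359, 0.285, 0.714 and 38.8 FPKM, and in Lgr5-Cdx2-Apc at 10.2 and 1.43 FPKM. Replicates 1 to 3 of Lgr5-Apc were the 3 lowest libraries of the series and replicate 4 the highest. Per length, Slc9a3 was at 0.221 to 0.329 of Slc9a2 in Cdx2-Apc and at 0.0777 to 0.0811 of it in control, without overlap. That ratio was 0.421 and 0.814 in Lgr5-Cdx2-Apc and ran from 0.0111 to 0.393 in Lgr5-Apc.

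Atp1b1, the beta subunit gene of the sodium pump, was at 462, 699 and 813 FPKM in control and at 741, 960.2 and 940.0 FPKM in Cdx2-Apc. It was at 567, 147, 553 and 545 FPKM in Lgr5-Apc and at 159 and 28.5 FPKM in Lgr5-Cdx2-Apc. Lgr5-Apc replicate 2 was below Lgr5-Cdx2-Apc replicate 1, and those 3 libraries were the lowest of the series. By limma the log2 difference of Lgr5-Cdx2-Apc was -3.22 ± 0.73 from control (adjusted p = 0.0173), -2.54 ± 0.69 from Lgr5-Apc (adjusted p = 0.0476) and -3.67 ± 0.73 from Cdx2-Apc (adjusted p = 0.00958).

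Another beta subunit gene of the same pump, Atp1b3, had a different order. It was at 126, 26.7 and 27.7 FPKM in control, 26.6, 278, 129 and 23.9 FPKM in Lgr5-Apc, 22.1, 24.1 and 42.2 FPKM in Cdx2-Apc, and 136 and 257 FPKM in Lgr5-Cdx2-Apc. Its 5 highest libraries were also the 5 highest in squamous marker score. Atp1b1 was at 22.3 to 39.8 times Atp1b3 in Cdx2-Apc and at 1.17 and 0.111 times in Lgr5-Cdx2-Apc. In Lgr5-Apc replicate 2 it was at 0.528 times. The part of squamous epithelium in this order was not tested.

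Aqp8, a water channel gene of colonic surface epithelium, was at 191, 248 and 263 FPKM in control and at 229, 350.0 and 309 FPKM in Cdx2-Apc. It was at 161, 23.8, 99.7 and 22.4 FPKM in Lgr5-Apc and at 33.5 and 1.39 FPKM in Lgr5-Cdx2-Apc. All 6 libraries with the Lgr5 driver were below all 6 without it. This pooled split was not tested, and the share of all genes that show it was not computed. The libraries with the lowest columnar sums, both of Lgr5-Cdx2-Apc and Lgr5-Apc replicate 2, are on its lower side. The log2 difference of Lgr5-Apc from control was -2.07 ± 0.89 and did not pass (limma, adjusted p = 0.440). That of Lgr5-Cdx2-Apc was -4.68 ± 1.06 from control (limma, adjusted p = 0.0175) and -5.01 ± 1.06 from Cdx2-Apc (adjusted p = 0.0116), and both passed.

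Set against control, 4 of the 10 members (Hsd11b2, Nr3c2, Atp1b1 and Aqp8) were called lower in Lgr5-Cdx2-Apc and 0 higher; over all genes tested 8.55% were called lower and 19.1% in either direction. For 7 members the Lgr5-Cdx2-Apc libraries lay below all control libraries, against 25.3% of all genes. The median log2 difference was -1.55 over the members and 0.07 over all genes. The members are known to be expressed in columnar epithelium, whose summed markers were 181 to 998 FPKM in these libraries against 3422 to 5429 FPKM in control. With a score of those markers as a covariate, 0 members and 0.472% of all genes were called. There Nr3c2 (0.34 ± 0.31) and Slc9a2 (2.43 ± 0.71) changed sign, and neither was called. With a squamous score 0 members and 6.79% of all genes were called. The columnar score was 6.59 and 4.01 in Lgr5-Cdx2-Apc and 8.18 to 8.75 in control, without overlap. In the single-driver groups it was as low in 1 library, Lgr5-Apc replicate 2, at 6.45. The fit with that score therefore rests on few libraries to separate marker content from group, and the part of marker content was not tested. No member was called without Lgr5-Cdx2-Apc replicate 2, where 2.47% of all genes were and Hsd11b2 had a difference of -2.45 (adjusted p = 0.171) and Nr3c2 -1.34 (adjusted p = 0.301). There Atp1b1 had -2.01 (adjusted p = 0.166) and Aqp8 -2.75 (adjusted p = 0.160). The calls also ended without control replicate 2 (adjusted p from 0.0530 to 0.0899) or control replicate 3 (0.0573 to 0.0957), at differences close to those of all libraries. That of Nr3c2 ended without control replicate 1 or any 1 of the Cdx2-Apc libraries as well.

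**Figure D2:**
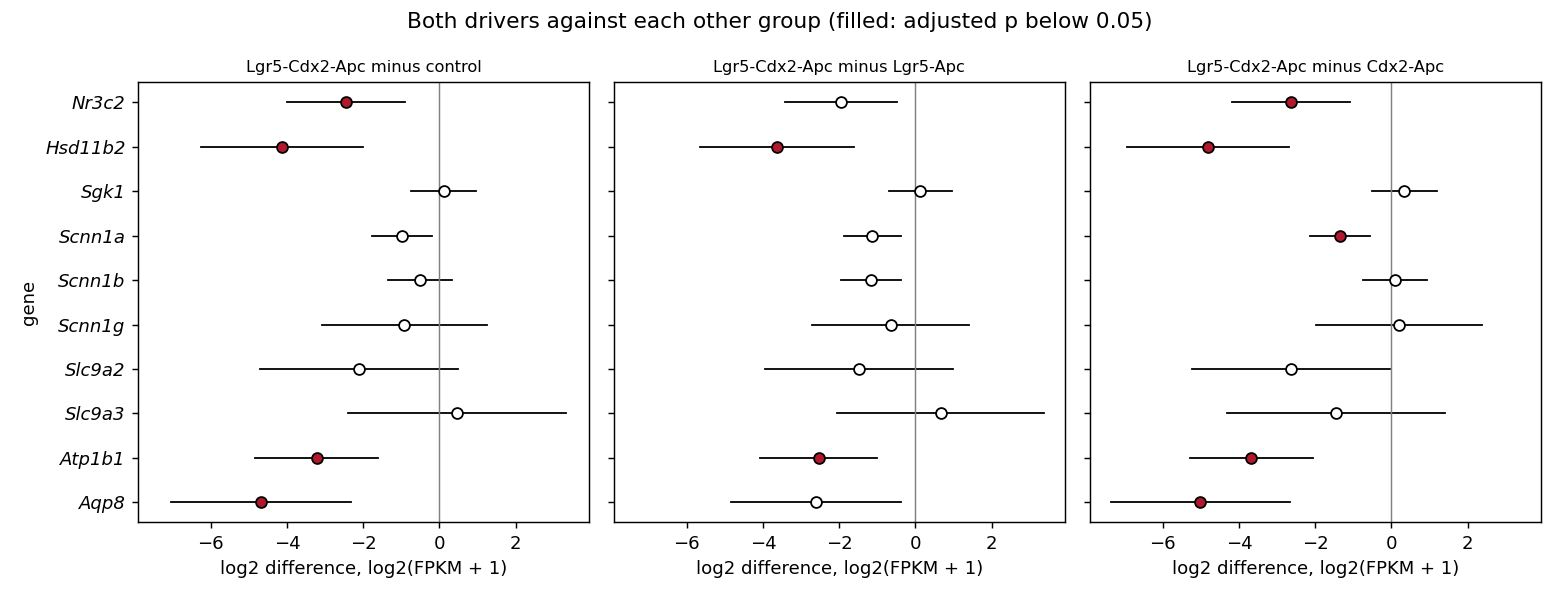
Log2 difference of each member between Lgr5-Cdx2-Apc and each other group, on the log2(FPKM + 1) scale. Points are limma estimates, bars their 95% intervals, and filled points have an adjusted p below 0.05. Hsd11b2 and Atp1b1 are filled in all 3 comparisons, and the interval of Sgk1 spans 0 in each.

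Against Cdx2-Apc, 5 members (Hsd11b2, Nr3c2, Atp1b1, Aqp8 and Scnn1a) were called lower in Lgr5-Cdx2-Apc and 0 higher; 11.7% of all genes were called lower and 23.8% in either direction. The groups did not overlap for 6 members, against 30.4% of all genes lower without overlap, and Slc9a2 was the member that did not overlap and did not pass. The median log2 difference was -2.05 over the members and 0.04 over all genes. Columnar markers were lower here too, 7 of 8 called. With the columnar score as a covariate 0.409% of all genes were called, and with the squamous score 3.92%. No member was called with either marker score as a covariate or without Lgr5-Cdx2-Apc replicate 2, where the adjusted p ran from 0.0946 for Hsd11b2 to 0.229 for Nr3c2. Without Cdx2-Apc replicate 2 or 3 the calls of Scnn1a (adjusted p = 0.0709 and 0.0655) and Nr3c2 (0.0646 and 0.0628) ended. That of Nr3c2 also ended without Cdx2-Apc replicate 1 and that of Scnn1a without Lgr5-Cdx2-Apc replicate 1.

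Against Lgr5-Apc, 2 members (Hsd11b2 and Atp1b1) were called lower and 0 higher; 3.77% of all genes were called lower and 8.99% in either direction. Scnn1a, Scnn1b and Hsd11b2 lay below Lgr5-Apc without overlap, against 14.9% of all genes. The median log2 difference was -1.33 over the members and 0.03 over all genes. Leaving out Lgr5-Apc replicate 2, which had the lowest columnar marker sum of its group, gave 5 calls (Scnn1a, Scnn1b, Hsd11b2, Nr3c2 and Atp1b1), where 25.7% of all genes were called in place of 8.99%. Quantile scaling gave 2 calls, Scnn1b and Hsd11b2, where 10.5% of all genes were called. Leaving out Lgr5-Apc replicate 4, the replicate number as a block, or the squamous score as a covariate each gave 2 calls. These were Scnn1a and Scnn1b in place of Hsd11b2 and Atp1b1, where 6.88%, 3.34% and 8.05% of all genes were called. Both calls ended without Lgr5-Cdx2-Apc replicate 2 (adjusted p = 0.350 for Hsd11b2 and 0.420 for Atp1b1). They ended too without any 1 of control 2, control 3, Lgr5-Apc 1, Lgr5-Apc 3 or the Cdx2-Apc libraries, and that of Atp1b1 without control 1.

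In the comparisons among control, Lgr5-Apc and Cdx2-Apc, limma called 0 members. In Lgr5-Apc against control 0.0115% of all genes were called. There 1 member, Aqp8, had an unadjusted p below 0.05, as did 1881 of all 17360 genes. It was the member lower without overlap, against 3.96% of all genes. In Cdx2-Apc against control 0.0403% of all genes were called. An unadjusted p below 0.05 was found for 0 members and for 285 of all genes. Without overlap, Scnn1g was lower there, as were 2.7% of all genes, and Slc9a3 higher, as were 5.88%. In Lgr5-Apc against Cdx2-Apc 0.0346% of all genes were called. Here 2 members had an unadjusted p below 0.05, Scnn1b (higher) and Aqp8 (lower), as did 1800 of all genes. Hsd11b2, Atp1b1 and Aqp8 were lower without overlap, against 6.76% of all genes, and Scnn1b higher, against 4.29%. In Lgr5-Apc against Cdx2-Apc the log2 difference was -1.18 ± 0.80 for Hsd11b2 (adjusted p = 0.583), -1.13 ± 0.61 for Atp1b1 (0.524) and -2.40 ± 0.89 for Aqp8 (0.418). These comparisons share their libraries with those above.

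Whether the change with both drivers departed from the sum of the single-driver changes was tested as a departure from additivity, the log2 difference of Lgr5-Cdx2-Apc from control less those of both single-driver groups. Limma called 0 members, against 1.58% of all genes. An unadjusted p below 0.05 was found for 4 members and for 3637 of all 17360 genes. The departure was -4.31 ± 1.24 for Hsd11b2 (adjusted p = 0.118), -1.50 ± 0.46 for Scnn1a (0.129), -2.99 ± 0.95 for Atp1b1 (0.136) and -2.13 ± 0.91 for Nr3c2 (0.218). Without Lgr5-Apc replicate 2 there were 4 calls, where 13.7% of all genes were called, and without Lgr5-Cdx2-Apc replicate 1 there was 1, where 0.985% were.

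Read against columnar markers in the same library, the members separated further. The score was the mean log2(FPKM + 1) of the 8 columnar markers, and the member's value on that scale minus the score is given. Atp1b1 kept its place, at 0.73 and 0.87 in Lgr5-Cdx2-Apc and 0.36 to 1.15 in the other libraries. Nr3c2 was at -1.84 and -1.49, above the -2.80 to -2.17 of the others. Sgk1 was at -0.11 and 2.16 against -3.08 to -0.33, so relative to these markers both Lgr5-Cdx2-Apc values were the highest. Its FPKM overlapped between all groups while the score was 6.59 and 4.01 in Lgr5-Cdx2-Apc, so this place follows from the low score. Hsd11b2 was at -2.28 and -3.06 against -2.41 to -1.21. Aqp8 was at -1.48 and -2.75, below control (-0.71 to -0.34) and Cdx2-Apc (-0.67 to -0.32), and within Lgr5-Apc, where replicates 1 to 4 gave -1.13, -1.82, -1.83 and -4.19. Aqp8 was thus lower relative to columnar markers in all 6 libraries with the Lgr5 driver than in the other 6. The share of all genes with this pooled split was not computed. The score adds a pseudocount to each gene and compresses low values, so a linear ratio to 1 of the markers, Epcam, is given too. Epcam itself stood above the score in Lgr5-Cdx2-Apc replicate 2, at 2.04 against 0.50 to 0.87 in the other libraries. Low percentages of Epcam in that library therefore depend on the choice of this marker. As a percentage of Epcam FPKM, Aqp8 was 37.1 to 46.0 in control, 44.3 to 52.4 in Cdx2-Apc, 27.9, 15.4, 17.4 and 3.51 in Lgr5-Apc, and 19.2 and 2.12 in Lgr5-Cdx2-Apc. On that scale Nr3c2 was 14.8 and 7.26 in Lgr5-Cdx2-Apc and 8.80 to 14.4 elsewhere, so on this scale replicate 2 was the lowest library. Sgk1 was 50.4 and 109 against 7.76 to 44.5, the highest on both scales. Here too the place follows from a low denominator, with Epcam at 175 and 65.4 FPKM in these libraries. Atp1b1 was 90.9 and 43.6 in Lgr5-Cdx2-Apc and 85.6 to 145 elsewhere. Hsd11b2 was 10.8 and 1.41, below the 13.0 to 29.9 of the other libraries. These ratios were not tested.

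**Figure D3:**
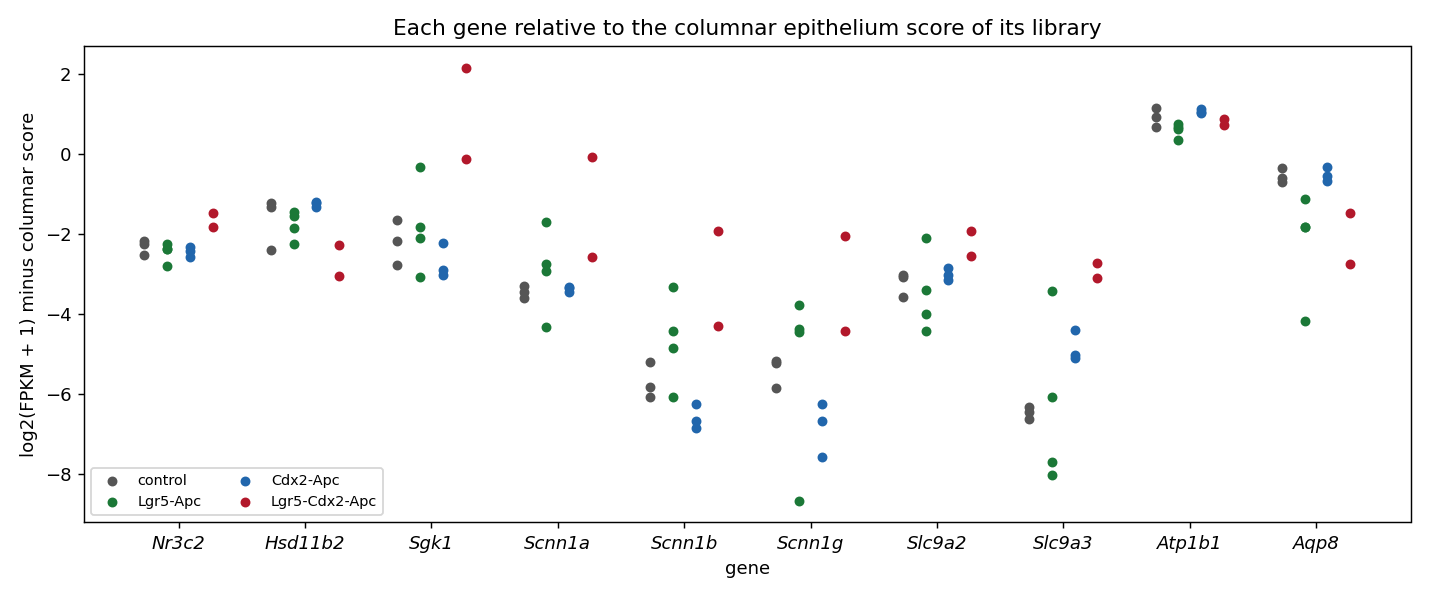
Members relative to the columnar epithelium score (vertical axis: log2(FPKM + 1) of the gene minus the mean log2(FPKM + 1) of 8 columnar markers) in each library. Points are libraries coloured by group. Aqp8 is lower in all 6 libraries with the Lgr5 driver than in the other 6, a pooled split that was not tested. Atp1b1 in Lgr5-Cdx2-Apc (0.73 and 0.87) lies among the other libraries.

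Lgr5-Apc replicate 4 stood apart from its group in these genes. It had Slc9a3 at 38.8 FPKM and Slc9a2 at 98.7 FPKM, the highest of the series, and Scnn1g at 0.0393 FPKM, the lowest. Fxyd4, a sodium pump regulator induced by corticosteroids, was at 0.574 FPKM there and at 155, 47.8 and 167 FPKM in the other Lgr5-Apc libraries. Atp12a, the proton pump gene of distal colon, was at 1.33 FPKM against 103, 31.3 and 119.8 FPKM. Both genes were lower in this library than in any other, while Nr3c2 (81.2 FPKM) was near its highest. Cdx2 was at 151 FPKM there and at 0.248 to 30.4 FPKM in the other 11 libraries. Guca2a, a peptide ligand of guanylate cyclase C, was at 1892 FPKM against at most 425 FPKM elsewhere. Its columnar marker sum lay within the range of its group and its squamous sum, 7.09 FPKM, was the lowest of the series.

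**Figure D4:**
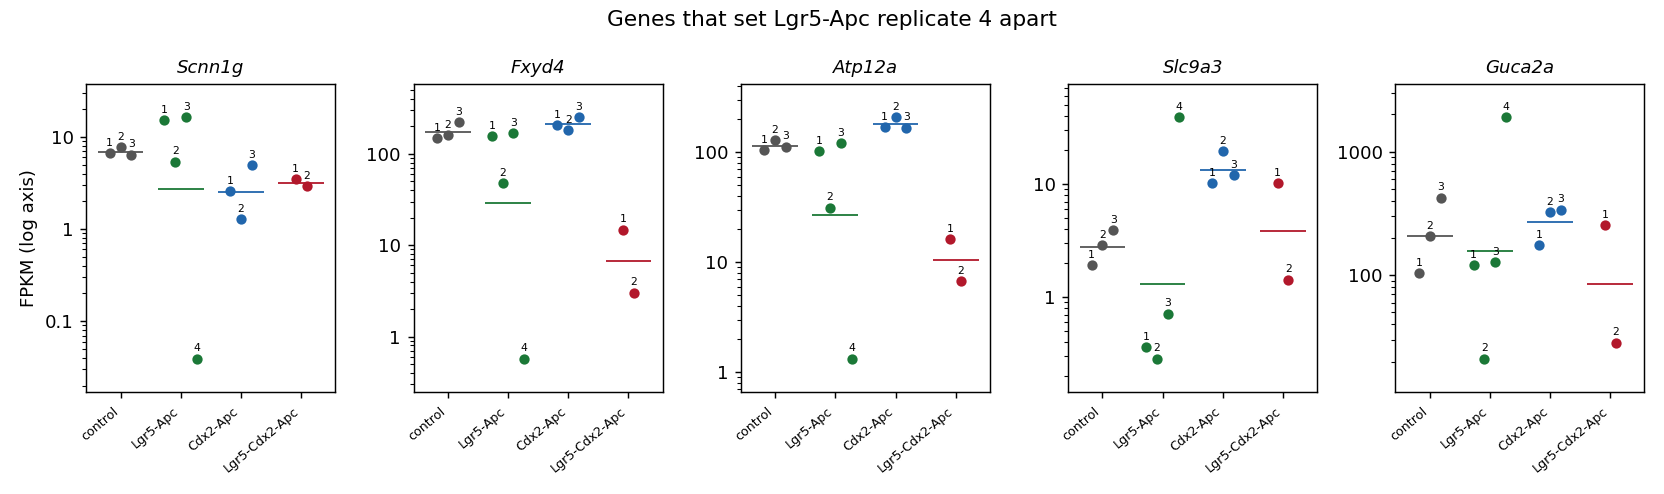
FPKM (log axis) by library of the genes in which Lgr5-Apc replicate 4 stands apart. Points are libraries labelled by replicate number and the horizontal line is the geometric mean of the group. Replicate 4 is the lowest library for Scnn1g, Fxyd4 and Atp12a and the highest for Slc9a3 and Guca2a.

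Regulators of the sodium channel were described from a list of 13 genes, 12 of them tested. In Lgr5-Cdx2-Apc against control 1 was called higher and 2 lower, with a median log2 difference of -0.20. Spint2, a protease inhibitor gene of epithelia, was at 568, 766 and 1047 FPKM in control and at 336 and 138 FPKM in Lgr5-Cdx2-Apc, a log2 difference of -1.83 ± 0.51 (limma, adjusted p = 0.0342). Spint1, a related inhibitor gene, was at 89.1, 86.8 and 116 FPKM against 42.2 and 28.6 FPKM, a difference of -1.45 ± 0.33 (adjusted p = 0.0184). Wnk1, a kinase gene of salt transport, was at 31.7, 25.4 and 27.9 FPKM against 43.7 and 59.9 FPKM, a difference of 0.84 ± 0.26 just inside the threshold. Furin, a protease gene that cleaves the channel, did not pass (0.67, adjusted p = 0.0995). Spint1 was also called lower against Lgr5-Apc, at -1.47 (adjusted p = 0.0236). Against Cdx2-Apc 1 of the list was called higher and 4 lower.

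Of 10 other genes listed as corticosteroid receptors, targets or their relatives, 1 was called higher and 0 lower against control, with a median of 0.25. That was Sgk3, listed as a kinase gene related to Sgk1. Whether corticosteroids act on it was not tested. Sgk3 was at 4.24, 2.06 and 1.82 FPKM in control and 9.49 and 12.4 FPKM in Lgr5-Cdx2-Apc (1.73 ± 0.47, limma, adjusted p = 0.0318). Nr3c1, the glucocorticoid receptor gene, was at 25.3, 30.9 and 28.9 FPKM against 43.8 and 44.2 FPKM without overlap, and did not pass (0.62, adjusted p = 0.073). Fxyd4 was at 147, 158 and 220.3 FPKM against 14.8 and 3.04 FPKM and did not pass either (-4.44 ± 1.61, adjusted p = 0.0759). Per1, a clock gene that responds to aldosterone, had a difference of 1.55 (adjusted p = 0.0908).

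Of 11 sodium and proton pump subunits and regulators 10 were tested; 1 was called higher and 1 lower, with a median of 0.24. Fxyd5, a pump regulator, was at 2.12, 4.89 and 4.89 FPKM in control and 16.8 and 15.5 FPKM in Lgr5-Cdx2-Apc (1.84 ± 0.41, limma, adjusted p = 0.0162). Atp1b2 (-1.20, adjusted p = 0.0613) and Fxyd2 (1.43, adjusted p = 0.0655) did not pass. Fxyd5 was called in the same direction against Lgr5-Apc and Cdx2-Apc.

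Of 12 other sodium-proton exchangers and their regulators 11 were tested; 2 were called higher and 3 lower, with a median of -0.29. Slc9a3r1, a scaffold of Slc9a3, was at 70.8, 55.1 and 90.5 FPKM in control and 36.8 and 29.9 FPKM in Lgr5-Cdx2-Apc (-1.07 ± 0.27, limma, adjusted p = 0.0251). Chp2, a cofactor of exchangers, was at 31.5, 30.7 and 42.9 FPKM against 17.0 and 2.51 FPKM (-2.17 ± 0.67, adjusted p = 0.0467). Pdzd3, another scaffold, was at 7.63 FPKM on average in control and 1.53 FPKM in Lgr5-Cdx2-Apc (-1.91 ± 0.54, adjusted p = 0.0358). The genes called higher were the low-level Pdzk1 (0.95, adjusted p = 0.033) and Slc9a7 (0.90, adjusted p = 0.0385). Of all the listed genes, Slc9a3r1 was the one called for departure from additivity (-1.68 ± 0.35, limma, adjusted p = 0.0473), 1 of the 58 tested or 1.72%, against 1.58% of all genes.

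Of 9 other aquaporins 7 were tested against control and 0 were called by limma, with a median of 1.23. An unadjusted p below 0.05 was found for 3 of them and for 6412 of all 17360 genes. Aqp3, a water channel gene of squamous and basal epithelium, was at 83.2, 2.98 and 1.29 FPKM in control, 9.49, 147, 58.0 and 0.352 FPKM in Lgr5-Apc, 0.492, 0.662 and 22.2 FPKM in Cdx2-Apc, and 89.6 and 159 FPKM in Lgr5-Cdx2-Apc. Its order over libraries was unlike that of Aqp8 and followed the squamous markers. Aqp4, a basolateral water channel, was at 17.1, 39.8 and 23.3 FPKM in Cdx2-Apc and 4.66 and 1.13 FPKM in Lgr5-Cdx2-Apc, a called difference of -2.92 ± 0.86 (limma, adjusted p = 0.0351). In control it was at 3.17, 10.6 and 6.97 FPKM, below all Cdx2-Apc libraries. Aqp7 (1.23, adjusted p = 0.0791), Aqp11 (-1.55, adjusted p = 0.0921) and Aqp9 (1.87, adjusted p = 0.211) did not pass against control, nor did Aqp5 (1.75, adjusted p = 0.111), which was listed at 0 in control.

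Potassium channels set the driving force for sodium entry and salt secretion. Of 5 channel genes 4 were called lower in Lgr5-Cdx2-Apc against control and 0 higher, with a median of -2.80. Kcnn4 was at 16.4, 15.3 and 23.8 FPKM in control and 3.46 and 0.637 FPKM in Lgr5-Cdx2-Apc (-2.83 ± 0.52, limma, adjusted p = 0.00905). Kcne3, a regulatory subunit gene, was at 46.7, 74.9 and 81.5 FPKM against 9.12 and 2.08 FPKM (-3.58 ± 0.86, adjusted p = 0.0215). Kcnk5 (-2.11, adjusted p = 0.0402) and Kcnma1 (-2.02, adjusted p = 0.0405) passed, and Kcnq1 (-2.80, adjusted p = 0.0519) did not. All 5 were called lower against Cdx2-Apc and 1, Kcnn4, against Lgr5-Apc (-2.46, adjusted p = 0.0182). Of the guanylate cyclase C axis, which controls intestinal salt and water, 0 of 3 genes were called against control by limma. An unadjusted p below 0.05 was found for 1 of them and for 6412 of all 17360 genes. Gucy2c, the receptor gene, had a difference of -2.64 (adjusted p = 0.0722) from control and was called lower than in Cdx2-Apc (-3.07, adjusted p = 0.0404). Guca2b (-1.78, adjusted p = 0.196) and Guca2a (-1.28, adjusted p = 0.563) did not pass against control. Of the 58 genes tested over all lists, 15 (25.9%) were called in either direction against control, 6 (10.3%) against Lgr5-Apc and 23 (39.7%) against Cdx2-Apc, where 19.1%, 8.99% and 23.8% of all genes were. Without Lgr5-Cdx2-Apc replicate 2, 0 of the 15, 0 of the 6 and 1 of the 23 were still called, and with the columnar score as a covariate 0 of each were. Of all genes, 0.472%, 0.536% and 0.409% were called with that covariate, in the same order. Without control replicate 3, 2 of the 15 were still called (Fxyd5 and Kcnn4), and without control replicate 2, 4 (Spint1, Fxyd5, Slc9a3r1 and Kcnn4). Limma called 0 of the 58 listed genes tested in Lgr5-Apc against control (8 at an unadjusted p below 0.05), 0 in Cdx2-Apc against control (2) and 0 in Lgr5-Apc against Cdx2-Apc (10). Among all 17360 genes, 1881, 285 and 1800 had an unadjusted p below 0.05, in the same order.

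Genes with the most similar profile were sought among the other 10246 tested genes that averaged 5 FPKM or more, by the root mean square difference of centred log2(FPKM + 1) over the 12 libraries. The nearest were Ces2c to Slc9a2 (0.16), Scd2 to Scnn1a (0.17), Glod5 to Atp1b1 (0.18) and Bcl2l14 to Nr3c2 (0.19). Pglyrp1 was nearest to Hsd11b2 (0.22) and H3f3a to Sgk1 (0.29). For Scnn1b it was Pmepa1 (0.38), for Aqp8 Slc26a3, the chloride-bicarbonate exchanger gene of the colon (0.38), for Slc9a3 Slc30a10 (0.41) and for Scnn1g Trpv3 (0.61). The second in line were Tmem171 (0.25), Ak3 (0.19), Gne (0.20), 2810459M11Rik (0.20), Smim24 (0.31), Fbxo6 (0.30), Hbegf (0.38), Cela1 (0.56), Dpep1 (0.48) and Tmem64 (0.61), in the same order of members. A small difference means less for a member that varies little: the standard deviation over libraries was 0.41 for Sgk1 and 0.59 for Scnn1a, against 2.17 for Aqp8 and 1.96 for Hsd11b2. Among the members, the closest pairs were Nr3c2 and Atp1b1 (0.40), Hsd11b2 and Atp1b1 (0.50), and Nr3c2 and Slc9a2 (0.60). Scnn1a and Scnn1b followed (0.63). The libraries share their differences in tissue makeup, so these likenesses describe the 12 profiles and no more.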

How the data were processed

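RNA of 12 mouse rectum samples was extracted with a column kit, treated with DNase and made into strand-specific libraries, per the labels' protocols. STAR, Cufflinks, Cuffdiff and the mm10 build are named in the submitters' processing notes; versions and annotation are not given in the sources used here. The deposited values are FPKM per gene, a unit read from the values since the header of the authors' table names none. After repeated symbols were reduced to the line with the highest mean (46 lines dropped), 27785 genes were left. The 17360 genes that reached 1 FPKM in 2 or more libraries were tested as log2(FPKM + 1), pseudocount 1 FPKM, with limma 3.58.1 in R 4.3.3: 1 term per group, moderation with a trend, 7 contrasts, two-sided, Benjamini-Hochberg adjustment within each, threshold 0.05. The procedure was tested on simulated data. The members and lists were chosen with earlier results of these data known. Named genes were the members, the 4 of each list with the smallest p in Lgr5-Cdx2-Apc against control, every called gene where fewer than 5 of a list were called, and the 2 nearest profiles. Of the genes this took, 1 is not reported here. Atp12a, Atp1b3, Aqp3, Kcnq1 and St14 were singled out after their values were seen. Libraries with the same replicate number were no more alike than others (15 pairs, median correlation of deviations -0.02), so the number was not in the model. Alternatives were other pseudocounts, filters, scalings, weights, moderation, a block, 2 marker scores as covariates, the compared groups alone and each library left out; leaving out Lgr5-Apc replicates 2 and 4 together was added after seeing the data.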

Additional observations from a re-analysis of the deposited data

Results flagged for a closer look

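Outliers within a group were sought among the 10 members in the Lgr5-Apc group, the only group of at least 4 libraries; 2 of the 10 were marked, where chance marks about 1 in 20. Slc9a3, an absorptive sodium-proton exchanger gene, was at 38.8 FPKM in Lgr5-Apc replicate 4, and the gap to the next library was 0.916 of the range of the group. Atp1b1, the sodium pump subunit gene, was at 147 FPKM in Lgr5-Apc replicate 2 with a gap of 0.971 of the range. That library also had the lowest columnar and the highest squamous marker score of its group. Slc9a3r1, the scaffold gene of Slc9a3, had a departure from additivity of -1.68 (limma, adjusted p = 0.0473), a test of whether the effects of the drivers differ from their sum. It was 1 of the 58 listed genes tested (1.72%), against 1.58% of all genes.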

How the results depend on the processing

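The 79 gene differences examined kept their direction and their side of the threshold in 1497 of their recomputed values, lost the call in 409, gained it in 38 and changed sign in 19. Calls among the members in Lgr5-Cdx2-Apc against Lgr5-Apc (2) became 1 with a pseudocount of 0.1 FPKM, with no filter or with a mean of at least 5 FPKM, 6 with library quality weights (22.1% of all genes called), 0 with the columnar score or the compared groups alone, and 7 without Lgr5-Apc replicates 2 and 4 (23.7%). The calls against control (4) and Cdx2-Apc (5) both became 0 with the columnar or the squamous score. Of all genes, 0.472% and 6.79% were then called against control, and 0.409% and 3.92% against Cdx2-Apc. Against Lgr5-Apc 0.536% were called with the columnar score and 0.933% with the compared groups alone. With the squamous score the count against Lgr5-Apc stayed 2, as Scnn1a and Scnn1b, where 8.05% of all genes were called. The departure from additivity (0) gave 3 with quality weights (12.6% of all genes) and 3 without Lgr5-Apc replicates 2 and 4 (13.4%). Leaving out 1 library gave 0 to 5 calls against control, 0 to 5 against Lgr5-Apc, 0 to 6 against Cdx2-Apc and 0 to 4 for the departure. An arm left with 1 library was assumed to vary like the other groups. With the replicate number as a block the counts stayed 4, 2 and 5, and 0 elsewhere, but the 2 against Lgr5-Apc were other genes (Hsd11b2 then had an adjusted p of 0.106 and Atp1b1 of 0.122); the numbers do not pair the samples. With the columnar score the sign changed for Nr3c2 (0.34 against control, 0.50 against Lgr5-Apc, 0.42 against Cdx2-Apc), Slc9a2 (2.43, 2.51 and 2.35), Aqp8 against Lgr5-Apc (0.23), Pdzd3 (0.18), Chp2 (0.48) and Kcnk5 (0.27) against control, and St14 (0.29), Kcnk5 (0.24), Kcnq1 (0.59) and Gucy2c (0.84) against Cdx2-Apc. For Sgk1 against control the sign changed with quality weights (-0.075), and leaving out 1 library gave -0.30 (without control replicate 1) to 0.33, below 0 also without Lgr5-Cdx2-Apc replicate 1. It gave -0.65 (without Lgr5-Cdx2-Apc replicate 1) to 1.55 for Slc9a3 against control and -3.09 to 0.11 (without Lgr5-Cdx2-Apc replicate 2) for Slc9a2 against Lgr5-Apc. The cause was not tested. Quantile scaling moved the median of all genes against control from 0.07 to -0.05. It changed the split of all called genes from 1830 higher and 1485 lower to 2018 and 2057, as did the pseudocount of 0.1 FPKM (1438 and 1564), the stricter filter (779 and 1146) and the block (1459 and 1544). Depth is unknown and the precision rests on 2 libraries with both drivers.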
